A study of Mus musculus with 24 samples.

Results

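A set of 9 secreted factors of muscle repair were followed across sorted muscle macrophages: Igf1, Gdf3, Gdf15, Tgfb1, Tgfbi, Inhba, Pdgfb, Osm and Hgf. The 9 genes were taken by their symbol in the platform annotation, and each gene was read from the detected probe with the highest mean. A probe was found for 8 of the 9 genes, 14 probes of the 45281 on the array, and Gdf15 was not analysed here. Mononuclear phagocytes that were CD11b+, Ly6G- and NK1.1- had been sorted from the tibialis anterior muscle of adult mice of 4 strains on the C57Bl/6 background: wild type (WT), Cx3cr1-/-, Ccl2-/- and the double mutant Cx3cr1-/- Ccl2-/-. The mutants lack, in every cell, the fractalkine receptor CX3CR1, the monocyte chemoattractant CCL2, or both. On day 4 after an intramuscular injection of notexin, a snake venom toxin that destroys myofibres, 4 subsets were taken. Subset 1 was Ly6C high and the others Ly6C low; subsets 1 and 2 stained low for the macrophage antigen that Adgre1 encodes, and subsets 3 and 4 stained high for it, subset 3 with low and subset 4 with high Mgl1. Subsets 3 and 4 were also taken from untreated muscle of the same strains, which gave 6 groups of 4 arrays, 1 array for each strain, and 24 arrays in all. Each array carried the amplified RNA of cells pooled from 3 mice of 1 strain, so every strain is 1 pool in each group. The 4 strains stand as the n = 4 of a group. In comparisons of subsets or conditions, p-values measure the spread between these pools. In comparisons of strains fitted over several subsets, they measure likeness across the subsets of a pool. Subsets of 1 strain and condition came from the same pool of mice.

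In injured muscle, macrophages supply factors that act on satellite cells, fibroblasts and endothelium. IGF-1 and HGF drive activation, proliferation and growth of myogenic cells, and oncostatin M is a cytokine of the IL-6 family that acts on myogenic and stromal cells. TGF-beta 1, activin A (the product of Inhba), GDF3 and GDF15 are ligands of the TGF-beta superfamily, Tgfbi encodes a matrix protein induced by TGF-beta, and PDGF-B recruits pericytes and fibroblasts. Ly6C high cells are the recent monocyte-derived, inflammatory population, and Ly6C low cells that stain for the Adgre1 antigen are the later, restorative one. All levels below are log2 intensities after background correction and quantile normalization, and an array value is an average over sorted cells, so fewer expressing cells and less RNA per cell cannot be told apart. A level is relative to the RNA of that sample and does not count how many cells of a subset the muscle held.

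Promoter windows (250 bases before to 50 after a transcription start, RefSeq, mouse build GRCm38.p6) were matched for 6 of the 9 genes, but not for Gdf3, Pdgfb or Osm. The 3 windows below belong to the genes that give the contrast described next: Igf1 and Hgf, both lowest in subset 2, and Inhba, which peaked in subset 1. Capitals mark matches to GAGGAA (the core bound by the myeloid factor PU.1), TGANTCA (AP-1) or TATAAA (the TATA box), searched on both strands along with the STAT motif TTCNNNGAA, which was in none of the 3. The Igf1 locus spans chr10:87858265-87937047, and the start site shown lies inside it on the plus strand (window chr10:87860861-87861160); Hgf lies at chr5:16553495-16619439 (window chr5:16553245-16553544, plus strand) and Inhba at chr13:16004256-16031609 (window chr13:16011601-16011900, plus strand).
Igf1: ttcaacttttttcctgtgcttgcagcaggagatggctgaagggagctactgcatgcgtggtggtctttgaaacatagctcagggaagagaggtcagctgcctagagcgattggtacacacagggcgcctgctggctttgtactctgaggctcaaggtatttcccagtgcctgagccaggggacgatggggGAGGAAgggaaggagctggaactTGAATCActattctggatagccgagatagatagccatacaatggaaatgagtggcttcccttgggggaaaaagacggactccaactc
Hgf: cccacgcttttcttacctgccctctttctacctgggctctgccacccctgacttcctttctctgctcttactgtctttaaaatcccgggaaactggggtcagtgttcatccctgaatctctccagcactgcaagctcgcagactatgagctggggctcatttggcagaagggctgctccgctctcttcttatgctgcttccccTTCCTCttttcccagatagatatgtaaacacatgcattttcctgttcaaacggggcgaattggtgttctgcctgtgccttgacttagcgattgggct
Inhba: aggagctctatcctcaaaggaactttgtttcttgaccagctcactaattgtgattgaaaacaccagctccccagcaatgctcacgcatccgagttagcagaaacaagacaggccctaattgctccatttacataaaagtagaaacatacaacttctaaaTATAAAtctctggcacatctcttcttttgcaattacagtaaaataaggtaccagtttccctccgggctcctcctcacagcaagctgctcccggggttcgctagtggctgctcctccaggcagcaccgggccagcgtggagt
Igf1 held GAGGAA at position -60 from the start site and TGANTCA at -37, which do not overlap. Hgf held GAGGAA at -47, read on the other strand as TTCCTC. Inhba held TATAAA at -91 and no GAGGAA. Of 32851 promoter windows of the same 300 bases, 28.3% held GAGGAA, 7.81% TGANTCA, 8.3% TTCNNNGAA and 13.6% TATAAA.

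Between 7054 and 18289 probes were detected per array (detection p under 0.05, median 15786.5). Subset 2 ranged lowest, at 7054 to 15794, and the 3 weakest day-4 arrays were those labelled Cx3cr1-/- subset 2, Cx3cr1-/- subset 4 and Cx3cr1-/- Ccl2-/- subset 2 (7054, 9369 and 10072 probes). Those 3 arrays also did not show the labelled loss of the Cx3cr1 transcript: they read 7.21, 6.77 and 6.46, within or above the Cx3cr1-proficient arrays of their subsets (6.21 to 6.64 in subset 2, 5.80 to 6.58 in subset 4), whereas the Cx3cr1-deficient arrays of subsets 1 and 3 on day 4 read 4.91 to 5.32 against 6.41 to 7.56. In untreated subset 3 the ranges overlapped at a low level (5.12 to 5.41 against 5.18 to 5.96). The 3 arrays are called by their labels throughout, and the main day-4 comparisons are given with and without them. In untreated muscle the weakest array was Ccl2-/- subset 3, with 9896 probes. Ccl2 was detected in Ccl2-deficient arrays as well (9.33 to 9.86 in subset 1 against 8.71 to 8.76 in the proficient strains); where its probe lies relative to the disrupted part is not known, so it checks nothing. Ly6c1 followed the gate (9.41 in subset 1, 5.70 to 5.90 in subsets 2 to 4). Clec10a, which encodes Mgl1, averaged 13.28 in subset 4 and 11.55 to 11.99 in the others on day 4, but did not pass there (F test, adjusted p = 0.0615; subset 3 minus subset 4 -1.29, adjusted p = 0.217), whereas in untreated muscle it was 2.84-fold higher in subset 4 (adjusted p = 0.00395). Adgre1 read 11.02 in subset 1, although that subset was gated low for its product, 8.25 in subset 2, 11.64 in subset 3 and 11.22 in subset 4. Dendritic cell markers stood out in subset 2, where 5 to 7 of 8 were detected with a summed linear intensity of 1498 to 5843, against 242 to 505 in the other day-4 subsets. Xcr1 was not detected in any day-4 subset, and Flt3 and Ccr7 were not detected in subsets 1 or 3.

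On day 4 the highest mean level lay in subset 4 for Igf1, in subset 3 for Hgf and Gdf3, in subset 1 for Osm, Inhba and Tgfbi, and in subset 2 for Tgfb1 and Pdgfb. By the probe used for each gene, all 4 strains put Hgf highest in subset 3 and Osm and Tgfbi highest in subset 1. For Inhba and Pdgfb 3 of 4 strains gave the same highest subset, and for Igf1, Tgfb1 and Gdf3 2 of 4 did. In the one-way F test across the 4 subsets (limma, adjusted over all 15320 probes tested), 4 of the 8 genes differed, Igf1, Osm, Hgf and Inhba, against 10.4% of all probes. Without the 3 weakest arrays these 4 stayed called, and Gdf3 passed as well, with subset 2 then not detected on either remaining array. The call of Inhba (adjusted p = 0.0496) was at the threshold: it was lost without Cx3cr1-/-, Ccl2-/- or the double mutant (adjusted p = 0.105, 0.164 and 0.358), with no background correction (0.0844), with arrays scaled to 1 median (0.0753), with the authors' values (0.0847), with a looser detection filter or none (0.0535 and 0.116) and with a prior with a trend (0.0506). The call of Hgf was lost without Cx3cr1-/-, Ccl2-/- or the double mutant (adjusted p = 0.054, 0.051 and 0.119), and that of Osm without the double mutant (0.145). For none of the 8 genes was the highest subset separated from the next by the test. Those gaps ran from 0.06 for Pdgfb to 0.999 for Inhba, the latter with adjusted p = 0.170. In this fit, Osm in subset 1 was separated from subsets 2 and 4 but not from subset 3, which was itself not separated from subset 4. For Igf1, Hgf and Inhba the highest subset was separated from the lowest alone. For the other genes it was separated from none.

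**Figure D1:**
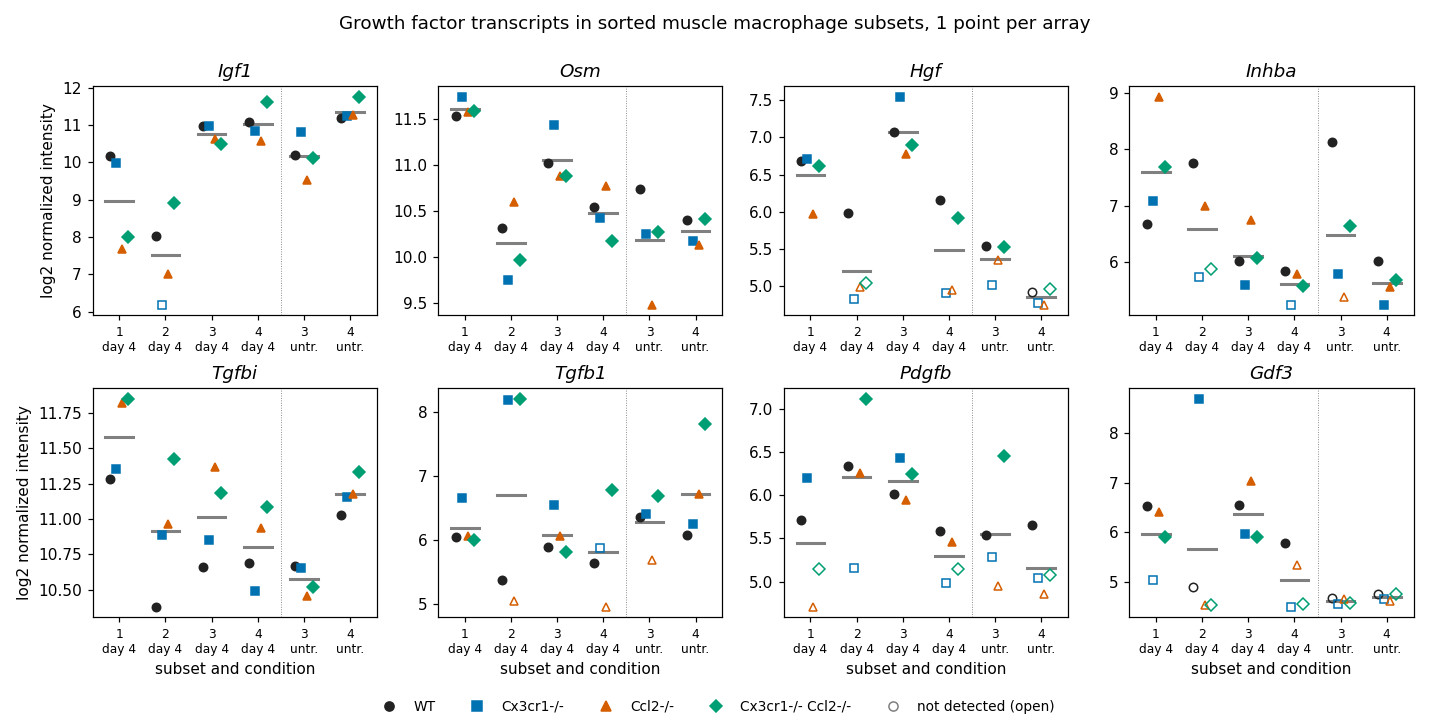
Level (log2 normalized intensity) of 8 growth factor genes in the 6 groups, with 1 point per strain, open where the probe was not detected, and a grey line at the group mean. Igf1 dips to a mean of 7.53 in subset 2 on day 4 and stays at 10.16 or above in subsets 3 and 4 of both conditions, while Osm peaks at 11.61 in subset 1.

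Igf1 was the gene with the widest range among subsets. In subset 2 on day 4 it read 8.02 in WT, 7.01 in Ccl2-/- and 8.90 in the double mutant, and was not detected (6.19) on the array labelled Cx3cr1-/-. In subset 3 the WT, Cx3cr1-/-, Ccl2-/- and double-mutant arrays read 10.96, 10.99, 10.61 and 10.48, and in subset 4 they read 11.08, 10.85, 10.56 and 11.61. Subsets 3 and 4 therefore lay above every subset 2 array, with no overlap, and differed little from each other. Igf1 was 9.39-fold lower in subset 2 than in subset 3 (difference -3.23 ± 0.58 SE, adjusted p = 0.00258) and 11.3-fold lower than in subset 4 (-3.50 ± 0.58, adjusted p = 0.00113); 13.3% and 5.88% of all probes were called in these comparisons. Both calls held without the 3 weakest arrays (-3.25 and -3.57, adjusted p = 0.0029 and 0.00154) and without each strain in turn (highest adjusted p = 0.0207 and 0.0127). Beside this, the dendritic cell markers named above were highest in subset 2. Lymphocyte and NK markers had a summed intensity of 431 to 623 there, against 156 to 200 in the other day-4 subsets. Of 6 such markers, 1 to 2 were detected per subset 2 array, and Cd3e, Cd3g, Ncr1 and Nkg7 on none. Neutrophil markers reached 1428 on 1 subset 2 array and at most 308 in the other day-4 subsets. Of 9 such markers, 0 to 3 were detected per subset 2 array, and S100a8, Ngp, Camp, Ltf, Mpo and Elane on none. Their part in the difference was not tested.

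Subset 1 was split by strain for Igf1. WT and Cx3cr1-/- read 10.16 and 9.98, whereas Ccl2-/- and the double mutant read 7.69 and 8.0. The 2 high values lay just below subset 3, and the 2 low ones within the range of subset 2. With this spread (mean 8.96 ± 1.29 SD), the differences of subset 1 from subset 4 (-2.07 ± 0.58, adjusted p = 0.0682) and from subset 3 (-1.80, adjusted p = 0.306) did not pass the test, and 2.57% and 0.268% of all probes did. Without the 3 weakest arrays both passed (-2.13, adjusted p = 0.0141, and -1.80, adjusted p = 0.0373), and a fit that blocked on the mouse pool called the first of them (adjusted p = 0.0493). Between subsets 3 and 4 the difference was -0.26 (adjusted p = 0.819; without the 3 weakest arrays -0.32, adjusted p = 0.744), with subset 3 the higher in Cx3cr1-/- and Ccl2-/-, and it turned to +0.39 when quantile normalization was replaced by scaling every array to the same median. The other Igf1 probe, detected on 20 of 24 arrays, gave -3.53 and -3.61 for subset 2 against subsets 3 and 4 (adjusted p = 0.000373 and 0.00019). For subset 1 it gave -2.33 against subset 4, which passed (adjusted p = 0.0153), and -2.25 against subset 3, which did not (adjusted p = 0.0667). With the pool as a block the latter passed in limma (adjusted p = 0.0239).

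Osm, the oncostatin M gene, was detected on all 24 arrays and showed the tightest ordering. Subset 1 read 11.53 in WT, 11.74 in Cx3cr1-/-, 11.57 in Ccl2-/- and 11.59 in the double mutant. Subset 2 read 10.32, 9.75, 10.59 and 9.96 in the same order of strains, subset 3 read 11.02, 11.43, 10.88 and 10.87, and subset 4 read 10.54, 10.42, 10.77 and 10.18. Every subset 1 array lay above every array of the other day-4 subsets, and subsets 2 and 4 overlapped. Osm was 2.73-fold higher in subset 1 than in subset 2 (+1.45 ± 0.25 SE, adjusted p = 0.00399, with 6.42% of all probes called) and 2.19-fold higher than in subset 4 (+1.13 ± 0.25, adjusted p = 0.0218). It was also 1.86-fold lower in subset 2 than in subset 3 (-0.90 ± 0.25, adjusted p = 0.0307). The gap of 0.55 between subsets 1 and 3 (adjusted p = 0.588) and that of 0.58 between subsets 3 and 4 (adjusted p = 0.286) did not pass. Without the 3 weakest arrays the call of subset 2 against subset 3 was lost (-0.60, adjusted p = 0.140), while subset 1 stayed above subset 2 (+1.15, adjusted p = 0.0115) and subset 4 (+1.11, adjusted p = 0.00365). Dropping the double mutant ended all 3 calls (adjusted p = 0.108, 0.290 and 0.200). The call of subset 1 against subset 4 was also lost without WT or Ccl2-/- (adjusted p = 0.0959 and 0.120) and with arrays scaled to 1 median (0.117), and that of subset 2 against subset 3 without WT or Cx3cr1-/- (0.0758 and 0.155).

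Hgf, whose product activates quiescent satellite cells through the receptor MET, was a weakly expressed gene on this array. In subset 3 it was detected in all 4 strains at 7.08, 7.55, 6.77 and 6.89 for WT, Cx3cr1-/-, Ccl2-/- and the double mutant, and in subset 1 it was detected at 6.69, 6.71, 5.97 and 6.62. It was detected on 1 array of subset 2 (WT, 5.99) and on 2 of subset 4 (mean 5.48 ± 0.65 SD). Within every strain subset 3 was the highest, and the subset 3 arrays all lay above those of subsets 2 and 4. Hgf was 3.63-fold lower in subset 2 than in subset 3 (-1.86 ± 0.35 SE, adjusted p = 0.00379) and 2.43-fold higher in subset 1 than in subset 2 (+1.28 ± 0.35, adjusted p = 0.0392). The difference between subsets 3 and 4 (+1.59) had adjusted p = 0.0623 against 0.268% of all probes called, and passed with the pool as a block (0.0240) or without the 3 weakest arrays (+1.40, adjusted p = 0.0237). Without those arrays subset 1 no longer passed against subset 2 (+1.01, adjusted p = 0.134), and subset 2 against subset 3 did (-1.58, adjusted p = 0.0144). Dropping the double mutant ended both calls (adjusted p = 0.313 and 0.0763), and dropping Cx3cr1-/- or Ccl2-/- ended that of subset 1 against subset 2 (adjusted p = 0.134 and 0.077), as did no background correction, scaling to 1 median, the authors' values and no detection filter (0.0557, 0.0579, 0.0555 and 0.059). A second Hgf probe, detected on 9 of 24 arrays, did not follow this pattern (F test, adjusted p = 0.847).

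Inhba, which encodes the subunit of activin A, an inhibitor of myogenic differentiation, ran the other way from Igf1. In subset 1 it read 6.68 in WT, 7.08 in Cx3cr1-/-, 8.92 in Ccl2-/- and 7.69 in the double mutant. In subset 4 the same strains read 5.86, 5.25 (not detected), 5.79 and 5.58, so the lowest subset 1 array lay above the highest subset 4 array. Subset 2 was scattered, with WT at 7.76, above WT subset 1, Ccl2-/- at 6.99 and the arrays labelled Cx3cr1-/- and Cx3cr1-/- Ccl2-/- not detected (5.74 and 5.88). Inhba was 3.93-fold higher in subset 1 than in subset 4 (+1.97 ± 0.48 SE, adjusted p = 0.0359; without the 3 weakest arrays +1.85, adjusted p = 0.01). Against subset 3 (5.61 to 6.76) the difference of +1.48 had adjusted p = 0.323, and 0.0367 without the weakest arrays. The call between subsets 1 and 4 was lost when Cx3cr1-/-, Ccl2-/- or the double mutant was left out (adjusted p = 0.0665, 0.272 and 0.315), and with no background correction (0.0705), arrays scaled to 1 median (0.102), the authors' values (0.0709) or no detection filter (0.0967).

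**Figure D2:**
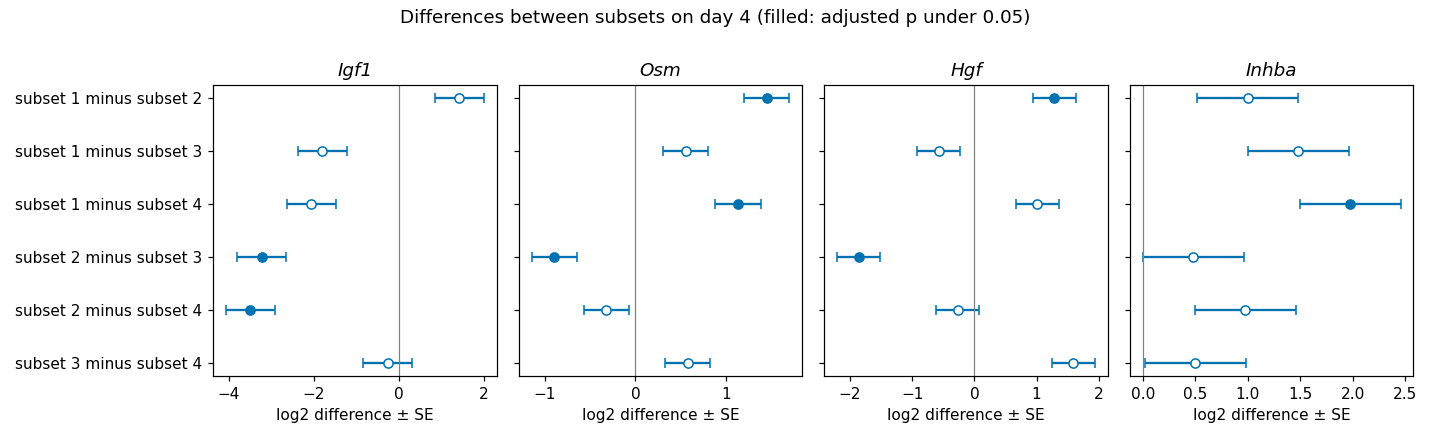
Differences between day-4 subsets in log2 level for Igf1, Osm, Hgf and Inhba, as the estimate ± SE of the limma fit, with filled points where the adjusted p was under 0.05. The filled points are the 8 calls of the 48 gene-by-pair tests over all 8 genes, from -3.50 for Igf1 (subset 2 minus subset 4) to +1.97 for Inhba (subset 1 minus subset 4).

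The other 4 genes did not differ among the subsets by the F test. Tgfbi was detected on all 24 arrays and was high throughout: subset 1 read 11.28 in WT, 11.36 in Cx3cr1-/-, 11.82 in Ccl2-/- and 11.85 in the double mutant, and the other day-4 arrays lay between 10.38 and 11.43. Subset 1 was the highest within each strain, by 0.78 over subset 4 on average (adjusted p = 0.158; without the 3 weakest arrays +0.68, adjusted p = 0.0843). The other Tgfbi probe, also detected on all 24 arrays, did not keep this order in every strain. By that probe subsets 2 and 4 reached 10.87 and 10.41, above the highest subset 1 array at 10.27 (F test, adjusted p = 0.359). Tgfb1, the TGF-beta 1 ligand itself, averaged 6.70 in subset 2, but that mean came from the arrays labelled Cx3cr1-/- and Cx3cr1-/- Ccl2-/- (8.19 and 8.21), which are 2 of the 3 weakest arrays. WT and Ccl2-/- read 5.37 and 5.05 there, the latter not detected. Without those arrays subset 1 was the highest (6.00 to 6.66 over its 4 strains).

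Pdgfb averaged 6.22 in subset 2 (6.34, 5.16, 6.26 and 7.12 for WT, Cx3cr1-/-, Ccl2-/- and the double mutant, the second not detected) and 6.16 in subset 3 (6.02, 6.43, 5.95 and 6.25, all detected). Only in subset 3 was it detected in every strain on day 4, against 2 of 4 arrays in subsets 1 and 4. Gdf3, a ligand of the TGF-beta superfamily, was likewise detected in all 4 strains in subset 3 on day 4, at 6.55, 5.95, 7.04 and 5.90. It was detected on 3 arrays of subset 1, on 1 of subset 4 and on 1 of subset 2. That 1 array, labelled Cx3cr1-/-, read 8.69 while the other 3 read 4.52 to 4.89. Without the 3 weakest arrays Gdf3 was not detected on either remaining array of subset 2, so its difference from subset 3 there is a bound and is not given. With arrays scaled to 1 median the highest subset became subset 3 for Igf1, Tgfb1 and Pdgfb, and the other 5 genes kept theirs.

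Receptors and partners of these ligands were read from lists of pathway genes; the counts below stand against the 10.4% of all probes called by the same F test. Of 9 tested IGF axis genes, 3 differed among subsets on day 4: Irs2, an adaptor of the insulin and IGF-1 receptors, Ctsd, a lysosomal protease, and Igfbp4, which binds and restrains IGF-1. Igfbp4 shared the subset 4 maximum of Igf1 but not its level in subset 3: it averaged 5.55, 6.48, 7.44 and 9.19 in subsets 1 to 4, 12.5-fold lower in subset 1 than in subset 4 (-3.64 ± 0.45, adjusted p = 1.78e-04). The receptor gene Igf1r was detected on 23 of 24 arrays at group means of 5.76 to 7.02 and did not pass the test among subsets. Of 19 tested genes of the TGF-beta superfamily, 7 differed, namely Tgfbr1, Tgfbr2, Acvr1, Smad3, Skil, Thbs1 and Itgav. Thbs1, whose product thrombospondin 1 activates latent TGF-beta, averaged 9.74 in subset 1 and 6.41 in subset 4 (10.0-fold, +3.33 ± 0.52, adjusted p = 0.00149). Tgfbr1, the type I receptor of TGF-beta, averaged 10.50 in subset 3 and was 2.59-fold lower in subset 2 (-1.38, adjusted p = 0.025).

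In the PDGF and VEGF list 4 of 7 tested genes differed. Pdgfa reached 9.02 ± 0.07 SD in subset 3, against 7.17 to 7.72 in the other day-4 subsets, and was higher there than in subset 4 by 1.65 (adjusted p = 0.00661). Pdgfc averaged 7.44 in subset 4 and was not detected in subsets 1 and 2. This gave at least 4.497-fold over subset 1 and at least 3.06-fold over subset 2 (bright mean over the lowest detectable signal). Pdgfc passed the detection filter only through subsets 3 and 4, where it was higher, so no p-value is given for these bounds. Vegfa, the main angiogenic factor, was 20.5-fold higher in subset 1 than in subset 4 (+4.36 ± 0.76, adjusted p = 0.00368), and Nrp1, a co-receptor, was 3.601-fold lower in subset 2 than in subset 3 (adjusted p = 0.00229). Of 8 tested genes of the IL-6 family, Lifr alone differed (higher in subset 4 than in subset 3 by 4.44-fold, adjusted p = 0.0014), and the oncostatin M receptor Osmr was detected on 1 of 24 arrays. Of 4 tested HGF and MSP genes 3 differed (Plau, Plaur and Spint1), and Met, the HGF receptor, was detected on 2 of 24 arrays, both of subset 1. Plau encodes urokinase, a protease that can activate HGF, and like Hgf it was lower in subset 2 than in subset 3 (-1.99 ± 0.43, adjusted p = 0.00865). Of 15 tested other repair factors 7 differed, Hbegf, Grn, Gas6, Il10, Il1b, Csf1 and Mmp9. Gas6, a bridging ligand of apoptotic cells, averaged 5.19 in subset 1 and 8.17 and 10.36 in subsets 3 and 4, and Mmp9 was 30.4-fold lower in subset 1 than in subset 2 (-4.93, adjusted p = 5.99e-05). Without the 3 weakest arrays the counts of genes called in these 6 lists were 3 of 9, 6 of 19, 6 of 6, 2 of 8, 3 of 4 and 8 of 15, in the order given, and the pairwise differences given here with an adjusted p kept their calls, whereas Irs2, Ctsd and Acvr1 lost theirs in the F test.

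The response to injury was read in subsets 3 and 4, day 4 against untreated muscle, in 1 fit over 16 arrays with the strain as a term. In subset 3, 2 of 7 tested genes were called, Osm and Hgf, both higher on day 4, against 15.6% of all 15624 probes. Osm in untreated subset 3 read 10.74, 10.25, 9.48 and 10.28 for WT, Cx3cr1-/-, Ccl2-/- and the double mutant, and was higher on day 4 in all 4 strains. The mean change was 1.82-fold (+0.87 ± 0.25 SE, adjusted p = 0.0339), and dropping any 1 strain ended the call (adjusted p = 0.0562 to 0.124). The lowest untreated value came from the weakest untreated array, Ccl2-/- subset 3, and a fit without that array, added after these values were seen, gave +0.63 for Osm (adjusted p = 0.118). Hgf in untreated subset 3 read 5.54, 5.02, 5.36 and 5.53 with 2 arrays detected, below all 4 day-4 arrays. By the probe used, Hgf rose 3.27-fold (+1.71 ± 0.27, adjusted p = 9.72e-04), by 1.54, 2.52, 1.41 and 1.37 in the 4 strains. The call held without Cx3cr1-/- or Ccl2-/- (adjusted p = 0.0055 and 0.00738) and without that array (+1.81, adjusted p = 0.00166), and Hgf fell under the detection filter without either of the other two. The other Hgf probes, detected on 9 and on 2 of 24 arrays, fell under the filter of this fit and were not tested. Their means in subset 3 changed by +0.21 and +0.29, so the rise of Hgf rests on the probe used. Igf1 changed by +0.60 (adjusted p = 0.142), and its other probe by +1.62, which passed (adjusted p = 0.0213). In subset 4 none of the 7 tested genes was called (limma; 3.97% of all probes), and 2 had an unadjusted p under 0.05: Tgfb1 (-0.91, adjusted p = 0.138) and Hgf (+0.63, adjusted p = 0.189). Hgf was detected on no untreated and 2 of 4 day-4 arrays of subset 4. Markers of other cells moved with injury too. In subset 3 Col3a1 rose (+2.24) and Dcn and Tnnt3 fell (-1.95 and -1.59), and in subset 4 Dcn, Col1a2 and Tnnc2 fell (-3.32, -1.52 and -2.09). The summed intensity of fibroblast markers was 510 to 1226 on day 4 against 812 to 1040 untreated in subset 3, and 761 to 2557 against 1888 to 4425 in subset 4. That of muscle markers was 372 to 579 against 364 to 741 in subset 3, and 626 to 822 against 786 to 1784 in subset 4. Their part in these changes was not tested.

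**Figure D3:**
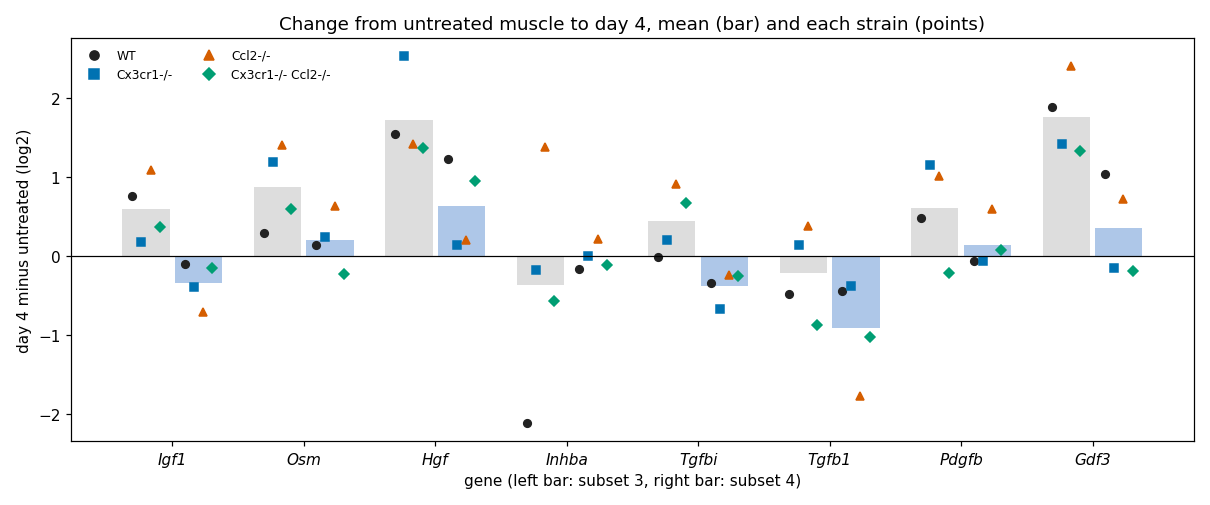
Change in log2 level from untreated muscle to day 4 after notexin for each gene, with bars for the mean over 4 strains (left bar subset 3, right bar subset 4) and 1 point per strain. The Hgf bars stand at 1.71 in subset 3 and 0.63 in subset 4, and the Igf1 points lie above 0 in subset 3 and below 0 in subset 4 in all 4 strains.

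The changes of Igf1 had opposite signs in subsets 3 and 4 in every strain: +0.75, +0.18, +1.09 and +0.37 in subset 3 and -0.10, -0.40, -0.70 and -0.15 in subset 4 (WT, Cx3cr1-/-, Ccl2-/-, double mutant). The test of this difference did not pass (-0.93 ± 0.38 SE, adjusted p = 0.121), nor did it for Tgfbi (-0.82, adjusted p = 0.0911) or Hgf (-1.09 ± 0.38, adjusted p = 0.0857). The other Igf1 probe gave -2.66 ± 0.61 for the same difference and passed (adjusted p = 0.0276). By the probe used for each gene, none of the 7 tested was called in the difference of responses (limma). Of these, 3 had an unadjusted p under 0.05, and 7.66% of all probes were called. Gdf3, undetected on all 8 untreated arrays, fell under the filter of this fit. It was detected on all 4 day-4 arrays of subset 3, at a mean of 6.36, at least 1.82-fold above the untreated level, and higher in all 4 strains. Where arrays were scaled to 1 median, the median change of all probes in subset 3 moved from +0.10 to +0.65. Relative to it the change of Osm was 0.77 after quantile normalization and 0.81 after median scaling, and that of Hgf was 1.61 and 1.60.

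Pathway genes were read in the same fit, in which 15.6% of all probes were called in subset 3 and 3.97% in subset 4. Of 18 tested TGF-beta superfamily genes 5 rose and 1 fell in subset 3 (median of the list +0.39, of all probes +0.10), and none was called in subset 4. Tgfbr1 rose 8.19-fold (+3.03 ± 0.30, adjusted p = 1.65e-05), from 7.47 to 10.50, and its change differed from that in subset 4 (-2.16, adjusted p = 0.0177). Tgfbr2 rose 2.37-fold and Itgav, an integrin chain that releases active TGF-beta, 2.94-fold, and Bmpr2 and Skil also rose. Tgif1, a repressor of TGF-beta targets, fell by 1.09 (adjusted p = 0.0104). In the PDGF and VEGF list 3 of 7 rose in subset 3 (median of the list +1.23) and none was called in subset 4: Pdgfa rose 7.08-fold (+2.82 ± 0.33, adjusted p = 7.36e-05), Nrp1 by 1.79 and Vegfb by 1.34. The interaction was called for Pdgfa (-2.74, adjusted p = 0.0116). Of 8 tested genes of the IL-6 family 5 fell in subset 3 (Il6, Lifr, Socs3, Il6ra and Stat3) and 3 fell in subset 4 (Il6, Il6st and Socs3), with list medians of -0.96 and -0.89 against +0.10 and -0.11 for all probes. With arrays scaled to 1 median, Il6ra, Stat3 and Socs3 in subset 3 no longer passed, nor did the falls of Tgif1, Plaur and Il1b or the rise of Ctsd in subset 4, and none of them turned. Il6 fell 22.8-fold in subset 3 (-4.51 ± 0.24, adjusted p = 1.69e-07) and 3.66-fold in subset 4. Plau rose with Hgf in subset 3 (+1.30, adjusted p = 0.00109), and Plaur, the urokinase receptor, fell by 1.01. In the IGF axis Igf2r (+1.69 in subset 3, +2.91 in subset 4) and Ctsd (+1.27 and +1.24) rose in both subsets. Of 14 tested other repair factors 4 rose in subset 3 (Grn, Nampt, Il10 and Csf1), 2 fell (Il1b and Fn1), and Mmp9 alone was called in subset 4, where it fell by 2.26. The medians of the IGF axis, HGF and MSP genes and other repair factors in subset 3 were +0.60, -0.60 and -0.19.

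In untreated muscle Igf1 was the 1 gene of the 7 tested that differed between the resident subsets, against 8.17% of all probes. Subset 4 read 11.18 in WT, 11.24 in Cx3cr1-/-, 11.26 in Ccl2-/- and 11.76 in the double mutant, and subset 3 read 10.21, 10.80, 9.53 and 10.11. The groups did not overlap, and Igf1 was 2.29-fold higher in subset 4 (+1.20 ± 0.27 SE, adjusted p = 0.0124; second probe +2.74, adjusted p = 0.00124). The call was lost without WT, Ccl2-/- or the double mutant (adjusted p = 0.0676, 0.112 and 0.0951). Without the weakest untreated array, which gave the lowest Igf1 value, it held (+1.06, adjusted p = 0.0416), and Inhba was then called as lower in subset 4 (-1.30, adjusted p = 0.0323). Igfbp4 differed the same way by 3.07 (adjusted p = 8.22e-05), and Tgfbr2 by 1.76 (adjusted p = 2.34e-04). Fibroblast markers were also higher in untreated subset 4, with 5 to 7 of 9 detected and a summed linear intensity of 1888 to 4425 against 812 to 1040 in untreated subset 3 (Col5a2 was detected in neither). Muscle markers were higher too, at 786 to 1784 with 7 to 9 of 12 detected, against 364 to 741 (Pax7, Myf5 and Myod1 were detected in neither). Eosinophil markers were higher in untreated subset 3 instead, with 1 to 3 detected and a summed intensity of 209 to 477 against 150 to 170 in subset 4, and Siglecf was 4.40-fold lower in subset 4 (adjusted p = 0.00261). The part of these cells in the Igf1 difference was not tested. Tgfbi (+0.60, adjusted p = 0.0957) and Inhba (-0.85, adjusted p = 0.201) did not pass.

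The strains were compared in 2 ways, and no growth factor gene was called in either. Each strain was 1 pool, so p-values here measure likeness across the subsets of a pool. The spread between pools of 1 strain could not be estimated. With Ccl2-/- set against the other 3 strains in subsets 1 and 3 on day 4, 0 of 8 genes passed, 6 had an unadjusted p under 0.05, and 0.714% of all probes were called. The largest was Inhba, at 8.92 in subset 1 and 6.76 in subset 3 of Ccl2-/-, above all other strains in both subsets (+1.32 ± 0.26 SE, adjusted p = 0.0506). Gdf3 (+0.75, adjusted p = 0.150) and Tgfbi (+0.40, adjusted p = 0.301) were on the same side, and Hgf (-0.55, adjusted p = 0.208), Pdgfb (-0.63, adjusted p = 0.233) and Igf1 (-0.94, adjusted p = 0.254) on the other. With deficiency of each gene fitted over the 16 day-4 arrays, 0 of 8 genes passed for Cx3cr1 (0.0326% of all probes) and 0 of 8 for Ccl2 (0.0718%). The Cx3cr1 result depended on the scaling: with arrays scaled to 1 median, the probes called went from 5 to 7587, of which 7561 were lower, the median difference of all probes from -0.15 to -0.58, and Inhba and Osm were called. An unadjusted p under 0.05 was reached for Cx3cr1 by Tgfb1 (+1.13, adjusted p = 0.135, and +0.60 without the 3 weakest arrays) and Inhba (-0.74, adjusted p = 0.155, and -0.49 without them, adjusted p = 0.728), and for Ccl2 by Tgfbi (+0.51, adjusted p = 0.215, and +0.47 without them, adjusted p = 0.0885). Of the 8 Cx3cr1-deficient arrays of this fit, 3 are the weakest arrays.

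The split of Igf1 in subset 1 followed Ccl2. A fit of Ccl2 deficiency within each day-4 subset, added after these values were seen, gave -2.22 ± 0.66 SE for Igf1 in subset 1 (4.66-fold lower, adjusted p = 1). The same difference minus that in subset 3 was -1.79 ± 0.93 (adjusted p = 0.9999). No probe of the 15320 was called in either (limma), although Igf1 and Inhba had an unadjusted p under 0.05 in subset 1. The spread in this fit is that between strains with and without Cx3cr1, taken over all day-4 subsets. It does not measure the spread between pools of 1 strain, so the split was not shown to exceed that. Igf1 in subset 3, in the same pools, read 10.48 to 10.99.

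**Figure D4:**
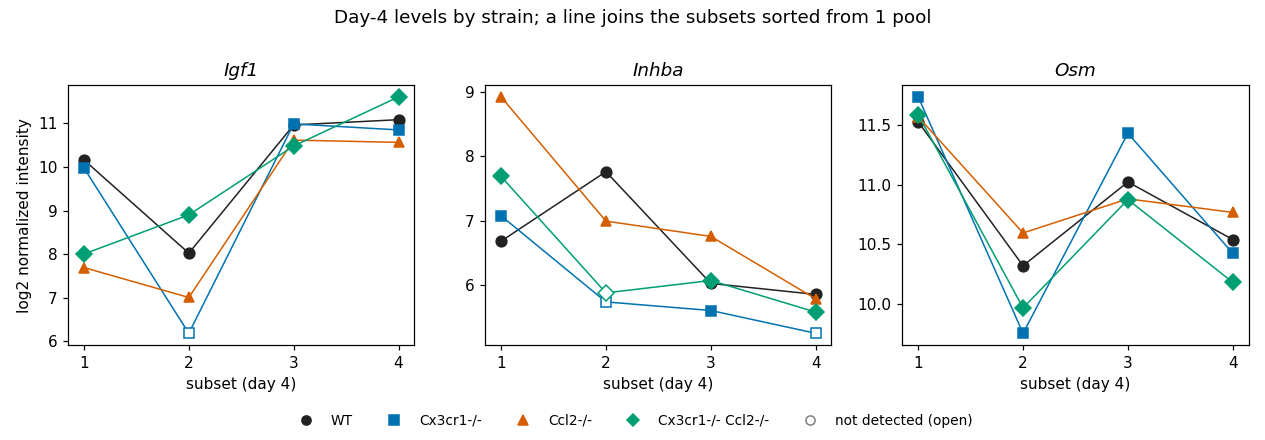
Day-4 level (log2) of Igf1, Inhba and Osm in subsets 1 to 4, with 1 line for each strain joining the subsets that came from its pool of mice. In subset 1 the Igf1 lines of WT and Cx3cr1-/- (10.16 and 9.98) stand apart from those of Ccl2-/- and the double mutant (7.69 and 8.0), whereas the Osm lines meet between 11.53 and 11.74.

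Across all 24 arrays the genes most like Igf1 in level, of 9213 compared, were C1qc (r = 0.956), C1qa (r = 0.936) and Wwp1 (r = 0.929); the first 2 encode chains of complement C1q, which macrophages make. Those most like Inhba were Slc16a3, a lactate transporter (r = 0.900), Slpi (r = 0.845) and Olr1 (r = 0.840). For Osm they were Gm5150 (r = 0.925), N4bp1 and Tpd52, for Hgf Itga6 (r = 0.906), Dtx4 and Syngr1, and for Tgfb1 Junb (r = 0.902), Secisbp2 and Rnf216. The likeness was weaker for Gdf3 (Stambpl1, r = 0.838), Tgfbi (Rybp, r = 0.799) and Pdgfb (Mical1, r = 0.779). Among the growth factors themselves the closest pair on day 4 was Osm and Hgf (r = 0.684 over 16 arrays), followed by Tgfbi and Inhba (r = 0.530). These correlations are descriptions over arrays that share subsets, strains and signal strength.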

How the data were processed

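Illumina mouse WG-6 v2.0 arrays measured RNA, amplified with the Ovation Pico WTA V2 kit, from the 24 sorted pools. The deposited files hold the probe intensity as exported by the authors from GenomeStudio (version not given in the sources used here), not normalized, with a detection p-value beside each intensity, as deposited. A table of processed intensity values deposited by the authors differed from log2 quantile-normalized signals by at most 0.0276 and served as an alternative. Median signals per array were 125 to 180, and precision is limited by the number of arrays.

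Signals were background-corrected and quantile-normalized (neqc, offset 16) to a log2 scale with limma 3.58.1 in R 4.3.3. Of the 45281 probes, the platform table gives a single symbol to 34885, several to 18 and no symbol to 10378. Probes detected in 8 of the 16 arrays of a fit were tested (in 4 of 8 for the comparison of Ccl2-/- with the other strains in subsets 1 and 3), and calls are Benjamini-Hochberg adjusted p under 0.05 over all probes tested. Subsets were compared by a one-way fit and its 6 pairwise contrasts, and injury by condition and subset with the strain as a term. Subsets sorted from the same mouse pool can be paired; their deviations correlated with a median r of 0.16 (24 pairs) against -0.06 between pools, so the day-4 fit was repeated with the pool as a block. Named genes are the members, up to 4 called genes of a list by the size of the difference, receptors, and the 3 genes most like each member (fewer are printed for 3 of them); other called list genes were named after their values were seen. Members and gene lists were chosen with earlier results of these data known. Alternatives were each strain or the 3 weakest arrays left out, other filters, another prior, the authors' values, median scaling and signals without background correction. A fit without the weakest untreated array was added after the values were seen. The main fits of the subsets, of injury and of the strains over several subsets were tested on simulated data. The fit with the pool as a block and that of Ccl2 deficiency within each subset were not. Chip or scan batches are not given in the sources used here.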

Additional observations from a re-analysis of the deposited data

Results flagged for a closer look

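In 4 of the 48 sets of 4 strains formed by the 8 genes and 6 groups, 1 array stood far from the other 3, where chance gives about 5% of sets. Igf1 read 11.76 in untreated subset 4 of the double mutant, and 11.18 to 11.26 in the other strains. Gdf3 read 8.69 on the array labelled Cx3cr1-/- in subset 2 on day 4, one of the 3 weakest arrays, and 4.52 to 4.89 on the others. Tgfb1 read 6.66 in Cx3cr1-/- subset 1 on day 4, and 6.00 to 6.06 in the other strains. Hgf read 5.97 in Ccl2-/- subset 1 on day 4, and 6.62 to 6.71 in the other strains. The response of Igf1 to injury had opposite signs in subsets 3 and 4 in all 4 strains, and the responses differed by -0.93 (subset 4 minus subset 3, adjusted p = 0.121 in limma). The other Igf1 probe gave -2.66 for this difference (adjusted p = 0.0276 in limma). The causes were not tested.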

How the results depend on the processing

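Single-gene results with an unadjusted p under 0.05 in the main fit gave 516 values under the alternatives. Of these, 435 kept their direction and side of the threshold, 48 lost a call, 32 gained one and 1 turned. That was Hgf in subset 2 minus subset 3, at +0.0497 (adjusted p = 0.935) with its second probe. A result not called in the main fit could not lose a call and counts as kept while it stays uncalled. The 48 losses therefore came from the called results alone. Weaker results, left out of this count, could turn too. With arrays scaled to 1 median, Igf1 in subset 3 minus subset 4 went from -0.26 to +0.39. Tgfb1 in subset 2 minus subset 3 went from +0.62 to -0.55. Scaling to 1 median raised the genes called from 2 to 5 for injury in subset 3 and from 0 to 5 for the difference of responses. It raised them to 1 for Ccl2-/- and to 2 for Cx3cr1 deficiency. On day 4 it cut them from 2 to 0 for subset 1 against 4 (Inhba and Osm lost) and from 2 to 1 for subset 1 against 2 (Hgf lost). Subset 2 against 3 went from 3 to 4 (Gdf3) and subset 3 against 4 from 0 to 1 (Hgf). All probes called in these pairs went, in that order, from 393 to 240, 984 to 556, 2041 to 6128 and 41 to 722 of 15320. In the F test among day-4 subsets they rose from 1590 to 3025. For injury in subset 3 they rose from 2430 to 5465 of 15624, of which 59.0% and 93.9% were higher. For the difference of responses they rose from 1197 to 7246 of 15624. For Ccl2-/- they rose from 120 to 404 of 16807, and for Cx3cr1 deficiency from 5 to 7587 of 15320. Under median scaling the directions of Osm in subset 4 (+0.20 to -0.23) and of Inhba and Tgfb1 in subset 3 (-0.37 to +0.08, -0.21 to +0.30) after injury turned, none of them called before. The difference of responses had 1 call with no background correction, the authors' values, a looser detection filter (4 of 16 or 2 of 8 arrays) or a prior with a trend. The untreated comparison had 2 with no background correction, the authors' values or the trend. Ccl2-/- had 1 with the looser filter or the trend, and Ccl2 deficiency had 1 with no background correction or the authors' values. Without the 3 weakest arrays 2824 probes were called among subsets and 3849 for injury in subset 3. Without the weakest untreated array, an alternative chosen after the values were seen, injury in subset 3 had 1 gene and 1539 probes called and the untreated comparison 2 genes. With the pool as a block 2941 probes were called among subsets. By the probe used for each gene, Igf1 was then called in subset 1 against subset 4 (limma, adjusted p = 0.0493). Hgf in subset 3 against subset 4 was called too (0.0240), and no other growth factor call changed. The other Igf1 probe was then also called in subset 1 against subsets 2 and 3 (adjusted p = 0.0497 and 0.0239). Leaving out 1 strain gave 1 to 4 genes in the F test, 2 to 9 pairwise calls, 0 to 1 for injury in subset 3, 0 to 1 in untreated muscle, and 196 to 987 probes among subsets and 883 to 2242 for injury in subset 3. The cause was not tested. A plain one-way F-test at the threshold of the study's methods (unadjusted p under 0.01) called 3 of the genes, Igf1, Osm and Hgf. It called 1961 of all 15320 probes. Weak signals limit Gdf3, Pdgfb, Tgfb1, Inhba and Hgf, each undetected on several arrays. Of 119 calls of pathway genes, 28 were lost under median scaling and 18 without the weakest arrays, and none turned.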
